A study of Mus musculus with 4 samples.

Results

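The response of p53-/- mouse embryonic stem (ES) cells to Adriamycin was read from 1 library of treated and 1 library of untreated cells, which are 2 of the 4 libraries in the series. Adriamycin (doxorubicin) traps topoisomerase II on DNA and so causes double-strand breaks. The cells carried the strain label C57BL/6X129Sv mix, had been passaged fewer than 20 times and grew in serum with leukemia inhibitory factor. The treated culture received the drug at 0.5 uM over 8 h. The p53+/+ cells of the same strain, untreated or treated in the same way, gave the other 2 libraries. RNA was described as carrying a poly(A) tail, and an exome enrichment kit was named for the libraries, so they may hold other transcripts than plain poly(A) libraries. The labels do not say whether the p53-/- cells are 1 clone, or which part of the gene is deleted. With 1 library a group there is no replicate, so every value below describes these libraries, with no test and no standard deviation.

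Cells with broken DNA stop in the cycle by more than 1 route. The kinases ATM and ATR, through CHEK2 and CHEK1, hold back CDC25 phosphatases and so CDK1, and this route does not need p53. In parallel p53 switches on genes such as Cdkn1a, whose product p21 inhibits the cyclin-dependent kinases and lets the DREAM complex shut down genes of mitosis. ES cells have a short G1 phase and rely largely on S and G2 checkpoints, which makes the cells without p53 a view of what remains of the response.

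Levels are FPKM (fragments mapped to a transcript, scaled by its length and by the size of the library), summed over the transcripts of a gene. Differences are treated minus untreated as log2(FPKM + 1), a scale on which low genes look less changed than they are. Of 23145 named genes, 11607 had an FPKM of at least 1 in either p53-/- library after short RNAs and intronless genes were left out. Of these, 31 were higher by at least 1, which is 0.267% of the genes, and 53 were lower by at least 1, which is 0.457%. At a step of 0.5, 315 genes (2.71%) were higher and 253 (2.18%) were lower. Over the same genes in p53+/+ cells, 2335 (20.1%) were higher and 1845 (15.9%) lower by at least 0.5. The response without p53 was thus narrow: 95.1% of its differences lay within 0.5 of 0, against 64% in p53+/+ cells. Its median was 0.07 and its quartiles were -0.06 and 0.20.

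Depth, as coverage times length over all transcripts, was 3.34 gigabases untreated and 3.52 gigabases treated for p53-/- cells, and 4.15 to 4.32 gigabases for p53+/+ cells. Trp53 still gave 78.6 FPKM before and 76.5 FPKM after treatment in p53-/- cells, where p53+/+ cells gave 216 and 165 FPKM. The gene was therefore lower but not silent in the cells labelled p53-/-, and the FPKM cannot show which exons the RNA holds. Among its relatives, Trp63 and Trp73 did not reach 1 FPKM in either p53-/- library. Pluripotency markers were present, with all 32 genes of that list at 1 FPKM or more in both p53-/- libraries and a summed level of 5209 FPKM untreated and 4542 FPKM treated. Fibroblast markers summed to 1269 and 1144 FPKM in the p53-/- libraries, with none of 23 genes at 0, against 423 and 368 FPKM in p53+/+ cells, where Col3a1, Dcn, Lum and Postn were listed at 0. In such bulk RNA, fewer cells of a type and less RNA per cell cannot be told apart.

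Genes of mitosis were lower in treated p53-/- cells more often than genes as a whole, and the promoters of the lower ones often shared short sequences. A pair of such sequences is known from cell-cycle promoters: the CHR (cell cycle genes homology region), bound by the LIN54 subunit of DREAM and of the B-MYB and FOXM1 complexes, and the CCAAT box, bound by NF-Y. The windows below reach from 250 bases before to 50 bases after the start of each gene in RefSeq, build GRCm38.p6, and run 5′ to 3′ along the gene. Capitals mark TTTGAA or TTCGAA (CHR letters) and CCAAT, on either strand. They are shown because Plk1, Aurka, Cdc20 and Hmmr were the 4 mitotic genes lower by at least 1, Ccnb1 encodes the cyclin of mitotic entry, Top2a encodes the target of the drug, and Cdc6 had the highest difference of the replication genes.

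Plk1, chr7:122159185-122159484, plus strand: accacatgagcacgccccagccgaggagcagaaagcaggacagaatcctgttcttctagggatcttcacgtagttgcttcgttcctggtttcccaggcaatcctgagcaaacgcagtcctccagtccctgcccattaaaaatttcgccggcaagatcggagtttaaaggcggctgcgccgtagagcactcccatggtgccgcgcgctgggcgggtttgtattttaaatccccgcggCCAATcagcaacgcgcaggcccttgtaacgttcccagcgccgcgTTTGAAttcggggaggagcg
Aurka, chr2:172370521-172370820, minus strand: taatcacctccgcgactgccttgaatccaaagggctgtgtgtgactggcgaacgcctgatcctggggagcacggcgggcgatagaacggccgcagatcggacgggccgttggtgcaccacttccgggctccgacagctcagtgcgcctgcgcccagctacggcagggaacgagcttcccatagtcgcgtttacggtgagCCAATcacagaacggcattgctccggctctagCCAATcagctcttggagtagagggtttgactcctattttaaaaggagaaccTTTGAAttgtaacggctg
Cdc20, chr4:118437294-118437593, minus strand: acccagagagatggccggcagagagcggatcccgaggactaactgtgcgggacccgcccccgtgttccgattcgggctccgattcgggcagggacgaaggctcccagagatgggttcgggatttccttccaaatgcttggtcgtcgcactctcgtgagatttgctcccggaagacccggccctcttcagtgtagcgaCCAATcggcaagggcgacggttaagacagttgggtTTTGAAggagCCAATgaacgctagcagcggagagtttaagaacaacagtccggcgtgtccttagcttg
Hmmr, chr11:40733388-40733687, minus strand: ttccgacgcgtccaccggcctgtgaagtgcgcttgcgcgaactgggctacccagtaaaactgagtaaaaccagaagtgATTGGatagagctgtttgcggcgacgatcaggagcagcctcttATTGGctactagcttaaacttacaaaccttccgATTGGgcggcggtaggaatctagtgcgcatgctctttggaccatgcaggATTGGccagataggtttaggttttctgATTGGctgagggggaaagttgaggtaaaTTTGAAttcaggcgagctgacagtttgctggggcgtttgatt
Ccnb1, chr13:100786437-100786736, minus strand: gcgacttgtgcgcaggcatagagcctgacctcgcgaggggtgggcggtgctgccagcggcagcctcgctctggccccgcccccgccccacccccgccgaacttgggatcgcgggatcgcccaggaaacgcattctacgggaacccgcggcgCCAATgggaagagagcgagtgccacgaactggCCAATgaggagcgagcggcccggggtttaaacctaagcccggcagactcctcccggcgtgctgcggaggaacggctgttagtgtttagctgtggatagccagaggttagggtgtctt
Top2a, chr11:99024140-99024439, minus strand: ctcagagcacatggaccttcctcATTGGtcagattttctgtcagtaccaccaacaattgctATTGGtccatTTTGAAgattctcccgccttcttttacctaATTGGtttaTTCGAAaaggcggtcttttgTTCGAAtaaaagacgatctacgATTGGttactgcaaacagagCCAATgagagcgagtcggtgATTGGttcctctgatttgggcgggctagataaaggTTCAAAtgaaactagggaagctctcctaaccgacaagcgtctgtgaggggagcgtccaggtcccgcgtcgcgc
Cdc6, chr11:98907901-98908200, plus strand: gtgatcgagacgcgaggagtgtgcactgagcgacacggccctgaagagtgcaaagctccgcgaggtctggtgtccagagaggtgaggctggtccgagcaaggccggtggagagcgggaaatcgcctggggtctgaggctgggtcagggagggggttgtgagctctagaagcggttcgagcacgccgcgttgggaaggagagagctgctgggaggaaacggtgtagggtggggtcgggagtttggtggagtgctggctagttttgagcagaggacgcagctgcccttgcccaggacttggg

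In Plk1 the CCAAT begins 14 bases before the start and the CHR letters begin at base 31 after it. Aurka has the same order, with CCAAT letters 51 and 19 bases before the start and CHR letters at base 33. Cdc20 holds CHR letters 18 bases before the start between 2 CCAAT boxes, and Hmmr holds 5 CCAAT boxes and CHR letters at base 9. Ccnb1 has 2 CCAAT boxes and no CHR letters in this window, and Cdc6 has neither. Top2a has the most of both, 4 CHR and 6 CCAAT matches, and its RNA was not lower in treated p53-/- cells. A match of letters is a description and shows no binding, and a missing match says only that the letters are not in the window.

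Over 9340 tested genes with a promoter in that table, 13.5% of windows held CHR letters, 39.7% held CCAAT and 6.01% held both. Of 122 promoters from the 5 mitotic lists described next, 58.2% held CHR letters and 45.9% held both. Among the 30 that belong to mitotic genes lower by at least 0.5, 26 (86.7%) held CHR letters and 23 (76.7%) held both. Among the other 92 mitotic promoters 48.9% held CHR letters and 35.9% held both. The mitotic genes with both motifs (56) had a median difference of -0.39, and 23 of them (41.1%) were lower by at least 0.5. Those with CHR alone (15), CCAAT alone (26) or neither (25) had medians of -0.06, -0.02 and -0.03. The letters did not mark lower genes outside these lists: of 505 other genes with both motifs 14 (2.77%) were lower by at least 0.5, and their median was 0.06. Among the 14 were Prr11, a gene of mitotic progression, at 7.05 FPKM untreated and 3.53 FPKM treated, and Arhgap19, a regulator of RhoA in cytokinesis, at 25 and 16.7 FPKM. Since the letters were searched with the differences known, these shares carry no test.

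**Figure D1:**
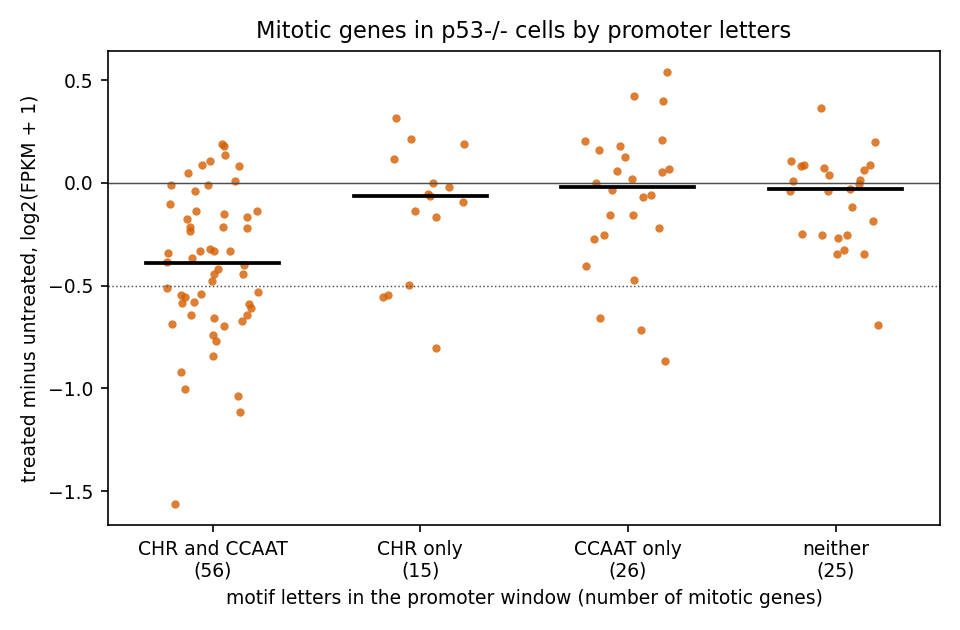
Differences of 122 mitotic genes in p53-/- cells (treated minus untreated, log2(FPKM + 1)) by the motif letters in their promoter windows; each point is a gene, the bar is the median and sideways spread is random. Genes with both CHR and CCAAT letters sit lower, with a median of -0.39, than the other 3 classes, whose medians lie between -0.06 and -0.02.

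The 5 mitotic lists held 144 genes that passed the filter, and 35 of them (24.3%) were lower by at least 0.5, against 2.18% of all genes. Their combined median was -0.17 beside the 0.07 of all genes. They made up 13.8% of all 253 lower genes and 30 of the 114 lower genes that share few words with another gene, as defined further below. The deposited 95% bounds, which cover counting and assignment error only, could be used for 21 of the 35 genes, with Plk1 and Aurka not among them. For none of the 21 did they overlap between the treated and the untreated library. Since the 35 genes were picked by a difference between these same values, bounds apart add no support. In p53+/+ cells 66 of the 144 were lower by at least 0.5, and 21 genes were lower in both genotypes.

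The kinases and cyclins that drive entry into mitosis gave 7 lower genes and 1 higher gene among 25. Plk1 (chr7:129302951-129313389 in mm9), the kinase that activates CDC25C and restarts the cycle after a checkpoint, stood at 106 FPKM in the untreated p53-/- library and at 35.4 FPKM in the treated one. It was 3.01-fold lower, a difference of -1.56, and in p53+/+ cells it moved from 99.0 to 29.2 FPKM (-1.73). Aurka (chr2:172181696-172196006), the kinase that activates PLK1, stood at 58.3 and 27.9 FPKM (-1.04), and at 75.4 and 33.6 FPKM in p53+/+ cells (-1.14). For both kinases the treated level lay far under the untreated level of either genotype, and the differences of the genotypes were of like size.

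Ccnb1 (chr13:101548694-101556441) stood at 59.5 FPKM untreated and 32.2 FPKM treated (-0.87), but 42.1% of its 50-base words occur in another gene. Cks2, a small subunit of the CDK complex, stood at 29.8 and 17.8 FPKM (-0.71), and 29.7% of its words occur in another gene. Ccnf, which encodes cyclin F of an SCF ubiquitin ligase, stood at 77.1 and 47.9 FPKM (-0.67) in p53-/- cells and at 136 and 140 FPKM in p53+/+ cells. Bub1b, the checkpoint kinase BUBR1, stood at 67.0 FPKM (95% bounds 62.2 to 67.2) and 44.5 FPKM (40.9 to 44.6). Cdc25c, the phosphatase that releases CDK1, stood at 10.6 and 6.97 FPKM (-0.54). Pkmyt1 went the other way: this kinase, which inhibits CDK1, stood at 13.8 FPKM (12.5 to 15.2) untreated and 21.6 FPKM (20.0 to 23.2) treated, a difference of 0.61. In p53+/+ cells Pkmyt1 stood at 15.1 and 24.7 FPKM (0.68). Not all genes of entry into mitosis moved. Cdk1 stood at 50.8 and 43.1 FPKM (-0.23), Ccna2, the cyclin of S and G2 phase, at 88.4 and 89.6 FPKM (0.02), and Aurkb, the kinase of the chromosomal passenger complex, at 57.2 and 53.5 FPKM (-0.10).

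Kinesins and spindle proteins were the list with the lowest median among the mitotic lists: 18 of 40 were lower by at least 0.5, 39 of 40 were below 0, and the median was -0.44. Hmmr (chr11:40514890-40546939), a spindle protein that targets TPX2, stood at 37.1 FPKM (34.3 to 38) untreated and 18 FPKM (16.3 to 18.7) treated. In p53+/+ cells Hmmr moved only from 55.6 to 45.7 FPKM (-0.28). Tpx2 (chr2:152673700-152721057), the activator of Aurora A on the spindle, stood at 38.9 and 21.4 FPKM (-0.83). Prc1, which bundles the microtubules of the central spindle, stood at 35.0 FPKM (31.7 to 35.8) and 20.1 FPKM (17.9 to 20.9). The partners of cytokinesis Racgap1 and Kif23 had differences of -0.64 and -0.51, and Ect2, which they recruit, one of -0.44. The motors Kif2c, Kif22 and Kif18b lay between -0.56 and -0.54. Aspm, a spindle pole protein, stood at 6.44 and 3.94 FPKM (-0.59). These genes span entry, spindle assembly and cytokinesis. Each one named in this paragraph was lower after treatment, but they were picked by size of difference or after their values were seen. Their shared direction therefore adds no support to the counts of the list.

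Of the anaphase-promoting complex (APC/C) and its partners, 3 of 23 were lower by at least 0.5. Cdc20 (chr4:118105506-118109948), the APC/C activator of anaphase, stood at 178 FPKM (173 to 185) untreated and 81.4 FPKM (77.9 to 85.7) treated, which is 2.18-fold lower. In p53+/+ cells Cdc20 moved from 195 to 142 FPKM (-0.45). The enzymes that hand ubiquitin to the APC/C were also lower: Ube2s stood at 104 and 59.1 FPKM (-0.80) and Ube2c at 177 and 121 FPKM (-0.55). The securin gene Pttg1 and the separase gene Espl1 had differences of -0.34 and -0.32. The list's median was -0.16.

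Centromere and kinetochore genes gave 5 lower genes and 1 higher gene of 34, with a median of -0.01. Cenpa, the histone variant of centromeres, stood at 55.1 and 32.6 FPKM (-0.74). Cenpe, a kinetochore motor, stood at 8.47 FPKM (7.91 to 8.99) and 5.01 FPKM (4.61 to 5.39), a difference of -0.66 beside 0.09 in p53+/+ cells. Incenp, a scaffold of the passenger complex, stood at 53.9 and 33.9 FPKM (-0.65). Cenph, of the inner kinetochore, was higher, at 15.1 and 22.3 FPKM (0.54). Of 22 condensin and chromosome structure genes 2 were lower, Mki67 (17.9 and 11 FPKM, -0.66) and Ncaph2 (54.2 and 36.6 FPKM, -0.55), and the median was 0.01. The median of that list falls below 0 under both other scalings of the libraries, at -0.07 and -0.01. Top2a was at 188 FPKM untreated and 195 FPKM treated (0.05), against 167 and 102 FPKM in p53+/+ cells (-0.71).

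**Figure D2:**
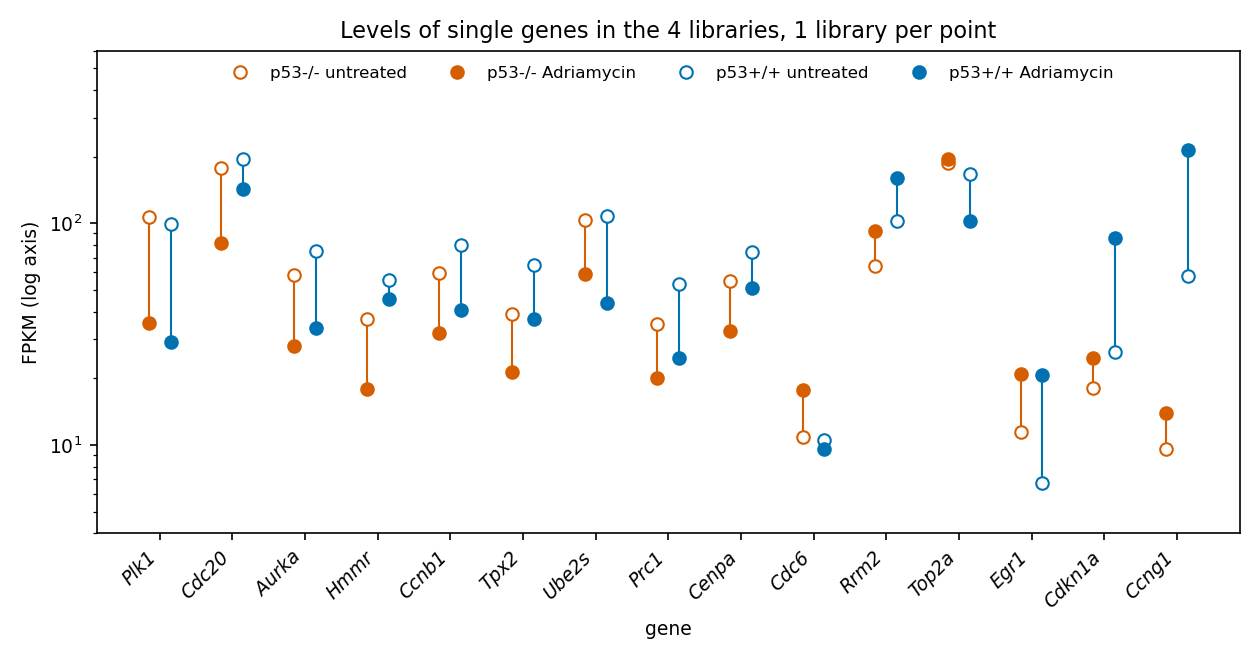
Levels (FPKM, log axis) of 15 genes in the 4 libraries, with open circles for untreated and filled circles for treated cells, orange for p53-/- and blue for p53+/+; each point is 1 library. The 9 mitotic genes on the left (Plk1 to Cenpa) are lower in treated cells of both genotypes, while Cdc6, Rrm2, Egr1 and Cdkn1a are higher in treated p53-/- cells and Top2a differs little there.

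The RNAs of proteins that act on CHR promoters were also measured. None of 20 genes of the DREAM, B-MYB and FOXM1 list passed a step of 0.5, where 95.1% of all genes lay within it, so this count is near that of genes as a whole. Foxm1 stood at 15.0 and 14.2 FPKM, Mybl2 (B-MYB) at 127 and 108 FPKM (-0.24), and Lin54, the subunit that reads the CHR, at 6.12 and 7.84 FPKM (0.31). Rb1, the retinoblastoma gene, was low in p53-/- cells, at 0.68 FPKM (0.51 to 0.85) untreated and 1.21 FPKM (0.99 to 1.43) treated, with bounds apart, against 4.0 and 21.3 FPKM in p53+/+ cells. The list's median was 0.04 and became -0.02 under median ratio scaling.

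Of the 35 lower mitotic genes, 4 were higher by at least 0.5 in p53+/+ cells. Psrc1, a microtubule-binding protein of the spindle, stood at 10.4 and 5.33 FPKM in p53-/- cells and at 61.1 and 159 FPKM in p53+/+ cells. Fam83d, which recruits casein kinase to the spindle, stood at 17.4 FPKM (15.1 to 18.3) and 11.1 FPKM (9.40 to 11.7), and at 22.4 and 65.5 FPKM in p53+/+ cells. Kif18b stood at 19.5 and 13 FPKM, and at 27.4 and 80.1 FPKM in p53+/+ cells. Kifc1 stood at 45.9 and 23.8 FPKM, and at 68 and 124 FPKM in p53+/+ cells, but it shares 47.6% of its words with a copy. Another 10 of the 35 were within 0.5 in p53+/+ cells. The genotypes thus went opposite ways for these 4 genes, a difference that was not tested.

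Of 54 G1/S and replication genes, which act in DNA synthesis, 4 were higher by at least 0.5, where 2.71% of all genes were, and none was lower by that much. In all 46 were above 0, where 64.5% of all genes were. The median was 0.14 beside 0.07 over all genes, against -0.17 in p53+/+ cells, and stayed above 0 under both other scalings. Cdc6 (chr11:98769203-98785256), which loads the replicative helicase, stood at 10.9 FPKM untreated and 17.6 FPKM treated (0.65), and at 10.5 and 9.61 FPKM in p53+/+ cells. Rrm2 (chr12:25393119-25399011), the regulated subunit of ribonucleotide reductase, stood at 64 and 92.6 FPKM (0.53). Rfc3, of the clamp loader, stood at 37.2 and 54.3 FPKM (0.53). Cdk2, the kinase of S phase entry, stood at 24.2 and 35.0 FPKM (0.51), and at 35.0 and 21.7 FPKM in p53+/+ cells (-0.66). Ccne1, cyclin E1, stood at 105 and 133 FPKM (0.33) without p53 and at 145 and 49.3 FPKM with it. The helicase genes Mcm2 and Mcm5 differed little, at 0.02 and 0.04.

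Other genes that act beside Cdc6 lay just short of the step. Fen1, the flap nuclease, stood at 40.5 and 55.4 FPKM (0.44) and Orc6, of the origin recognition complex, at 42.6 and 59.3 FPKM (0.47). E2f1, a factor that switches on such genes, stood at 26.7 and 36.8 FPKM (0.45). Of 43 promoters of this list 20.9% held an E2F site (TTTGGCGC or TTTCGCGC, either strand), against 1.66% of all 9340. Those with a site (9) had a median of 0.15, the same as the list to within 0.01.

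No gene of the 43 in the checkpoint and double-strand break repair list passed a step of 0.5, where 2.71% of all genes were higher by that much. The median was 0.15. Its highest members were Rad51ap1 (9.48 and 13.6 FPKM), Exo1 (11.4 and 16.2), Brca1 (14.1 and 19.8) and Chek1 (11.1 and 15.6), which act in end resection, homologous recombination and the ATR checkpoint, with differences from 0.46 to 0.48. The bounds of these 4 genes did not overlap between the libraries: Chek1, for example, had 9.91 to 12 untreated and 14 to 16.5 treated. The 4 were picked as the highest members, so bounds apart add no support for a change. Chek2 stood at 14.6 and 13.2 FPKM (-0.14). None of 24 excision, mismatch and translesion genes and none of 14 topoisomerase, adduct repair and efflux genes passed the step. Since 95.1% of all genes lay within 0.5, these counts do not set repair genes apart from genes as a whole.

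**Figure D3:**
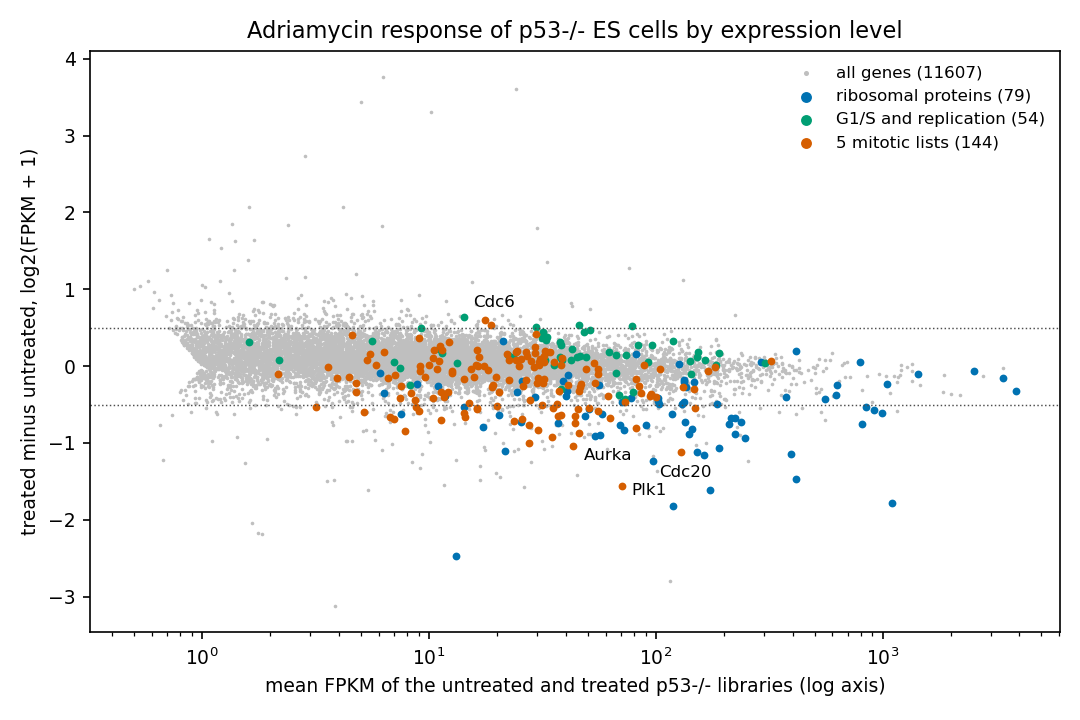
Difference (treated minus untreated, log2(FPKM + 1)) against the mean FPKM of the p53-/- libraries (log axis), 1 point a gene, with mitotic genes in orange, G1/S and replication genes in green, ribosomal proteins in blue and dotted lines at -0.5 and 0.5. Mitotic genes reach down to -1.56 at Plk1, most green points lie above 0, and low genes sit slightly above 0 as a whole.

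The classical targets of p53 show what was left without it. Of 53 genes in 3 target lists 3 were higher and 2 lower by at least 0.5, where 2.71% and 2.18% of all genes were. Their median was 0.14 beside 0.07 over all genes. In p53+/+ cells 33 of the 53 were higher, where 20.1% of all genes were, and the median was 1.13. Mdm2, the ligase that degrades p53, stood at 17.7 and 19.9 FPKM without p53 and at 32.6 and 257 FPKM with it. Cdkn1a (chr17:29227931-29237667) stood at 18 and 24.6 FPKM (0.43), and at 26.2 and 85.8 FPKM in p53+/+ cells (1.67). Ccng1, cyclin G1, stood at 9.62 FPKM (8.54 to 10.5) and 13.9 FPKM (12.4 to 14.7), against 58.1 and 214 FPKM. These targets moved far less without p53, and Cdkn1a and Ccng1 were nevertheless higher in the treated library.

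The following 3 targets were higher by at least 0.5. Btg2 (chr1:135971442-135975732), an antiproliferative gene that is also an immediate early gene, stood at 1.84 FPKM (1.46 to 2.20) and 3.93 FPKM (3.30 to 4.52), a difference of 0.80 beside 2.85 in p53+/+ cells. Trp53inp1, a stress protein of autophagy and apoptosis, stood at 2.01 and 3.62 FPKM (0.62). Pmaip1, the BH3-only protein NOXA, stood at 4.0 FPKM (3.31 to 4.66) and 6.12 FPKM (5.17 to 6.72), a difference of 0.51. The lower ones were Gadd45a, at 34.9 FPKM (32.1 to 37.8) and 24.3 FPKM (22.1 to 26.6), and Gtse1, at 36.7 and 25.6 FPKM, which moved from 76.9 to 170 FPKM in p53+/+ cells. Gtse1 encodes a microtubule-binding protein expressed in G2 phase. The lower members thus included a gene of the spindle as well as a stress gene.

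Of 18 genes in the BCL2 family and caspase list 2 were higher by at least 0.5. At that step 2.71% of all genes and 5.75% of genes with a mean under 5 FPKM were higher, and both members have such a mean. None of the list was lower by 0.5, and the median was 0.26 beside 0.07 over all genes. Ripk1, the kinase of death receptor signalling, stood at 1.71 FPKM (1.42 to 2.00) and 3.11 FPKM (2.69 to 3.49). Bik, a BH3-only protein, stood at 1.02 FPKM (0.51 to 1.49) and 2.00 FPKM (1.16 to 2.69), with bounds that overlap. Bad stood at 3.94 and 5.74 FPKM (0.45) and Bcl2l11, which encodes BIM, at 5.97 and 8.45 FPKM (0.44). Bbc3, which encodes PUMA, stood at 2.19 and 2.51 FPKM (0.14) and at 11 and 43.5 FPKM with p53. Several of these genes are low, and low genes as a class lay above 0: the 3845 genes with a mean under 5 FPKM had a median of 0.13 and held 221 of the 315 higher genes. The 638 genes at 100 FPKM or more had a median of -0.07, and 51 of them (7.99%) were lower by at least 0.5.

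Immediate early genes, which respond to signalling within minutes, gave 4 genes of 20 higher by at least 0.5, where 2.71% of all genes were, and no lower one. The median was 0.15, and it became -0.0077 over the 14 genes with at least 5 FPKM. Fos stood at 1.37 FPKM (0.97 to 1.76) and 4.29 FPKM (3.43 to 4.93), a difference of 1.16. Egr1 stood at 11.4 FPKM (10.1 to 12.4) and 20.8 FPKM (18.6 to 21.7), and at 6.76 and 20.7 FPKM in p53+/+ cells. Dusp5 and Dusp2, phosphatases that switch off ERK and related kinases, had differences of 0.60 and 0.50. The list did not move as a whole, since Myc (-0.22), Srf (-0.24) and Ccn1 (-0.18) were below 0 and Atf3 was at 1.78 and 1.84 FPKM. Another 8 genes of the list, Jun, Junb and Ier2 among them, were left out as intronless or low.

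Of 17 NF-kB targets 3 were higher by at least 0.5, where 2.71% of all genes and 5.75% of genes with a mean under 5 FPKM were. Ccl2, a chemokine, stood at 3.96 and 6.47 FPKM, Cxcl10 at 1.64 and 2.86 FPKM and Cd40 at 0.68 and 1.45 FPKM, and the bounds of Ccl2 (2.41 to 4.69, and 4.07 to 6.78) and of Cxcl10 overlap. Nfkbia, the inhibitor that NF-kB itself switches on, stood at 19.3 and 20.6 FPKM (0.09). Of 19 interferon response genes Ifitm2 alone passed the step, at 419 and 276 FPKM, and it shares words with a copy. Of 26 genes of the integrated stress response Ddit3, which encodes CHOP, alone passed it, at 25.2 and 16.6 FPKM (-0.57), and the median was -0.10. Ddit4, an inhibitor of mTOR, stood at 102 and 73.2 FPKM (-0.47) and at 68.5 and 223 FPKM with p53. None of 21 genes of the unfolded protein response, 31 of autophagy and the lysosome, 17 of promoter elongation or 24 targets of NODAL, BMP, FGF, Wnt and Notch passed it. From the interferon list on, these counts are near those of all genes, of which 2.71% were higher and 2.18% lower. Of 28 NRF2 and antioxidant genes 2 were higher and 1 lower by at least 0.5. The median was 0.10, beside 0.07 over all genes. The lower one was Sod1, at 360 and 152 FPKM (-1.24), and a higher one Gpx4, at 172 and 273 FPKM (0.66). Both share words with copies. Nqo1 stood at 8.12 and 12.3 FPKM (0.54) and Hmox1 at 98.5 and 135 FPKM (0.45), and these 2 were also higher in treated p53+/+ cells.

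Of 23 glycolysis genes 3 were lower by at least 0.5, where 2.18% of all genes were, 22 were below 0 and the median was -0.27, against -0.51 in p53+/+ cells. Among the 14 of them that share few words with another gene 1 was lower, 13 were below 0 and the median was -0.18. Slc2a1 (chr4:118781350-118809934), the glucose transporter GLUT1, stood at 691 and 424 FPKM (-0.70), and at 561 and 317 FPKM with p53. Hk2, hexokinase 2, stood at 130 and 95.6 FPKM (-0.44). Eno1 and Pkm were the other lower members and share words with copies. Of 31 pluripotency genes Zfp42 (REX1) alone was lower by at least 0.5, which is near the 2.18% of all genes, and the median was -0.11. It stood at 307 and 164 FPKM (-0.90), while Nanog stood at 194 and 166 FPKM (-0.22) and Pou5f1 (OCT4) at 658 and 666 FPKM (0.02). In p53+/+ cells 21 of the 31 were lower, and Nanog moved from 310 to 105 FPKM (-1.55). Of 22 fibroblast markers 2 were lower by at least 0.5, where 2.18% of all genes were. In all 17 were below 0, and the median was -0.13. The 2 lower ones were Acta2 (22.6 and 12.9 FPKM) and Tagln (37.7 and 24.6 FPKM), both of contractile cells. The part of other cells in these results was not tested.

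**Figure D4:**
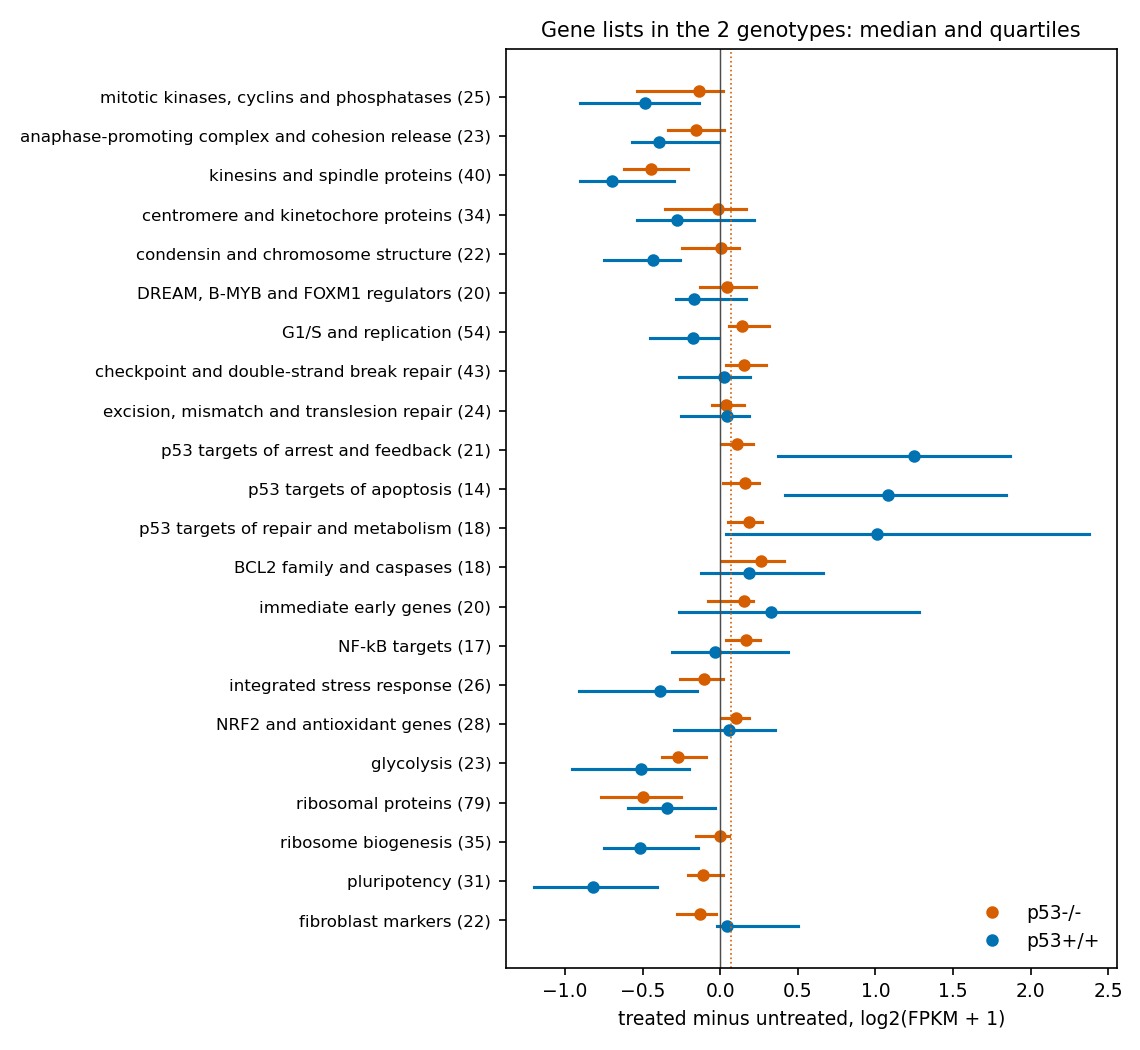
Median difference (points) and quartiles (bars) of 22 gene lists, in orange for p53-/- and blue for p53+/+ cells, with the number of genes in brackets, a grey line at 0 and a dotted line at the median of all genes in p53-/- cells. Kinesins and spindle proteins (-0.44) and ribosomal proteins (-0.50) lie farthest below 0 in p53-/- cells, and the p53 target lists lie near 0 there but above 1 in p53+/+ cells.

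Ribosomal proteins had the lowest median of the 42 lists, with 39 of 79 genes lower by at least 0.5, 11 lower by at least 1 and a median of -0.50. Rps21, for example, stood at 1694 and 490 FPKM, and Rps19 at 261 and 84.9 FPKM. However, 73 of the 79 share at least 10% of their 50-base words with the transcripts of another gene, and the median of the remaining 6 was -0.37. A gene and its copy could differ in opposite directions: Rps15a stood at 22.9 and 3.30 FPKM while its copy Rps15a-ps4 was listed at 18.8 and 183 FPKM. Rps15a shares 6.28% of its words and so is 1 of the remaining 6. The cut at 10% thus does not remove every gene with a copy. Tubg2, which shares 14.3% of its words with Tubg1, stood at 1.06 and 19.3 FPKM, while Tubg1 differed little, at 73.0 and 73.4 FPKM. Which copy a fragment came from cannot be told from these tables. Over all genes, 970 shared at least 10% of their words, and 14% of them were lower by at least 0.5, against 1.07% of the 10621 others. They made up 13 of the 31 genes higher by at least 1 and 40 of the 53 lower by at least 1, so values for them are uncertain.

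Outside the shared genes the largest differences included several that belong to none of the lists above. Lower ones were Pif1 (13.2 and 5.4 FPKM, -1.15), a DNA helicase, Hyls1 (8.80 and 3.60 FPKM, -1.09), a centriole protein, and Pnp (43.8 and 20.2 FPKM, -1.08), purine nucleoside phosphorylase. Its neighbour Pnp2 went the opposite way, at 2.83 and 45.4 FPKM, as Rps15a and its copy did. No shared words were counted for Pnp or Pnp2, but which of them a fragment came from was not tested. The value of Pnp is therefore uncertain. Higher ones were Ctns, the cystine exporter of lysosomes, at 3.86 and 7.45 FPKM (0.80) and Fam111a, a protease that protects replication forks, at 5.83 and 10.4 FPKM (0.73). Pif1, Hyls1 and Ctns moved the same way in p53+/+ cells, by -1.62, -0.83 and 0.70, while Fam111a differed by -0.45 there.

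The responses of the 2 genotypes share no library and could be set side by side. Across the 11607 genes, which are not independent, Pearson's r was 0.20 and Spearman's rho 0.21. Higher by at least 0.5 in both were 116 genes, which is 36.8% of the genes higher without p53 and 4.97% of those higher with it, where 20.1% of all genes were higher with p53. Lower in both were 106 genes, or 41.9% and 5.75%, where 15.9% of all genes were lower with p53. Opposite ways went 19 genes that were higher without p53 and 20 that were lower without it.

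**Figure D5:**
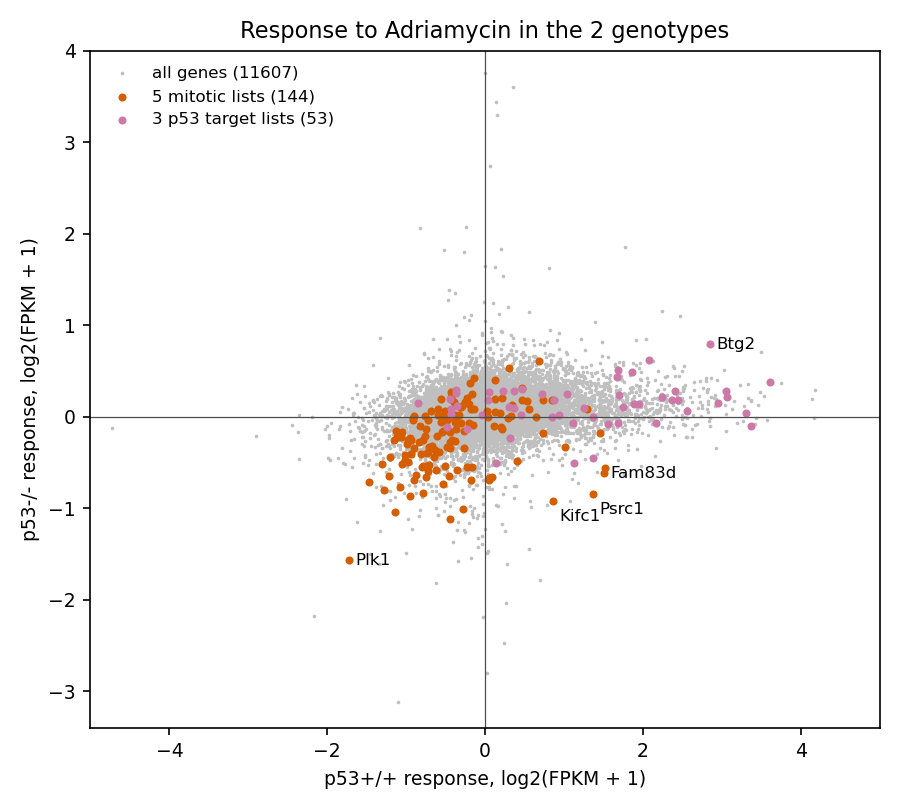
Difference in p53-/- cells (vertical axis) against p53+/+ cells (horizontal axis), both on the log2(FPKM + 1) scale, 1 point a gene, with mitotic genes in orange and p53 targets in purple. Most mitotic genes fall in the lower left, with Plk1 at -1.56 and -1.73, Psrc1, Kifc1 and Fam83d fall in the lower right, and p53 targets spread to the right along 0.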

How the data were processed

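Levels are the FPKM of transcripts that the authors deposited, 1 table of 30769 rows a library, laid out like Cufflinks output per the file headers. The deposited tables also hold bounds of each FPKM and read coverage (signal per transcript), which was used with the length for depth only. CASAVA 1.8.1, TopHat2 2.0.5, Cufflinks and the build mm9 are named per the submitters' processing notes, with no role given. Cufflinks' version and the gene models behind the tables are not given in the sources used here. RefSeq identifiers were named from RefSeq for 30227 rows and from GENCODE M21 for 180, and 362 had no name. Transcripts were summed by gene, 752 short RNA and 2333 intronless genes were left out, and genes with at least 1 FPKM in either p53-/- library were kept. Differences used a pseudocount of 1 FPKM. Shared words are 50-base words of a gene's GENCODE transcripts found in another gene. Bounds are given only where a gene has 1 transcript and the FPKM lies inside them. The FPKM lay above its own upper bound in 1520 rows of the untreated and 1888 of the treated p53-/- library. Coordinates of genes are those of the tables (mm9, from 1).

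Named genes were Trp53, the 15 highest and 15 lowest genes at 5 FPKM or more, and up to 4 members of each list, and all others were chosen after their values were seen, as were the E2F site, the classes by level and the small RNA host genes. The members and lists were chosen with earlier results of these data known. Python 3.11.15 with pandas 2.3.3 and numpy 2.4.6 was used. On simulated libraries all 100 genes made higher were recovered at the step of 1. These genes had at least 5 FPKM and were raised by well over that step, so the recovery checks the code only. It does not cover the step of 0.5 or genes under 5 FPKM. A few genes picked by this rule are not reported here. The 10 alternatives are given at the end.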

Additional observations from a re-analysis of the deposited data

Results flagged for a closer look

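Several genes named above or by the naming rule differed in opposite directions in the p53-/- and the p53+/+ libraries, by at least 0.5 each. Over all 11607 genes this held for 19 that were higher and 20 that were lower without p53. With 1 library a group the difference between genotypes was not tested. Among genes of the spindle, Kifc1 differed by -0.92 in p53-/- and 0.86 in p53+/+ cells, Psrc1 by -0.84 and 1.37, Fam83d by -0.61 and 1.51, Kif18b by -0.56 and 1.52, and Gtse1 by -0.50 and 1.13. Cdk2 differed by 0.51 and -0.66, and the chemokine Ccl25 by 0.85 and -0.66. Pet117, an assembly factor of cytochrome oxidase, differed by -0.99 and 0.58. Bloc1s1 (-1.45 and 0.55) and Rps21 (-1.79 and 0.70) share words with copies. Zfp982, a zinc finger gene with 5.6% of its words shared, differed by 1.83 and -0.52.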

How the results depend on the processing

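Of 440 list medians under 10 alternatives 430 stayed within 0.13 of the reported value and 10 moved further. Of 44 medians, 2 of them of pooled lists, 17 change sign under at least 1 of the scalings, and the one farthest from 0 as reported is -0.09. Of 1847 values of single genes 98 moved and 0 reversed. The counts of genes depend on the settings. With a pseudocount of 0.1 FPKM, 114 genes were higher by 1 and 784 by 0.5. With 5 FPKM, 11 were higher and 28 lower by 1, and 45 higher and 162 lower by 0.5. With a filter of 5 FPKM, 13 were higher by 1 and 124 by 0.5. With the main transcript 61 were higher by 1, with intronless genes 49, and after quantile normalization 151 were higher by 0.5. Within their own bounds 27 genes were lower by 1 and 147 by 0.5. Without shared words 17 were higher and 12 lower by 1, and 114 lower by 0.5. Higher genes made up 55.5% of those past 0.5, but 39.1% after median ratio scaling and 32.9% after quantile normalization. Neither scaling moved the median of all genes by more than 0.1. The oxidative phosphorylation median of -0.09 became 0.067 after quantile normalization. As reported, 9 of the 46 genes of that list were lower by at least 0.5, where 2.18% of all genes were. By at least 1, 6 were lower, where 0.457% of all genes were. Among the 34 that share few words with another gene, 3 were lower by 0.5 and 1 by 1. Within bounds, glycolysis stood at -0.12 over 10 genes and ribosomal proteins at -0.73 over 15. The immediate early median became -0.0077 with the filter of 5 FPKM, and that of primitive endoderm markers 0.049 with no filter. The cause of these shifts was not tested. The 5 mitotic lists stayed below 0 in their combined median, at -0.24 and -0.21 under the scalings, and G1/S genes above 0, at 0.07 and 0.17. No paired analysis was possible because each group has 1 library.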

Other observations

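Host genes of small nucleolar RNAs, grouped after their values were seen, were mostly lower in treated p53-/- cells. Of 15 genes 6 were lower by at least 0.5, where 2.18% of all genes were, and 13 were below 0. Their median was -0.37 beside 0.07 over all genes. Snhg3 stood at 18.8 and 7.50 FPKM (-1.22), Snhg1 at 109 and 58.7 FPKM (-0.89), Snhg5 at 69.5 and 41.1 FPKM (-0.74), and Gas5 at 29.0 and 20.1 FPKM (-0.50). In p53+/+ cells the same 15 genes had a median of -0.50, and 8 were lower by at least 0.5, where 15.9% of all genes were. As background, Gas5 and several of the others begin with an oligopyrimidine tract, as ribosomal protein mRNAs do, and are degraded when translated. Naca and Eif4a2, which encode a chaperone of nascent chains and a translation helicase, stood at 40.0 and 16.2 FPKM (-1.25) and at 122 and 64.7 FPKM (-0.91), and were also lower in p53+/+ cells. They share 7.98% and 9.43% of their words with other genes, just under the cut of 10%.

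Short genes held more of the differences past 0.5 in either direction. Of 3143 genes under 10 kb 4.52% were lower and 4.84% higher by at least 0.5, and of 1163 genes of 100 kb or more 0.34% and 0.69%. The medians of the 4 classes of length lay between 0.02 and 0.08. Shared words occurred in 14.2% of the shortest class and 2.15% of the longest, and their part in this was not tested.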
